A study of Drosophila melanogaster with 6 samples.

Results

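Golgins are long coiled-coil proteins that stand out from the Golgi surface and catch incoming vesicles, and stacking proteins of the GRASP type join the flat cisternae into a stack. Each golgin marks a face of the organelle: some sit at the cis face, where cargo from the endoplasmic reticulum arrives, and others at the trans face, where cargo leaves. Secretory organs such as the embryonic salivary gland depend on this machinery, and CrebA is a bZIP transcription factor known for raising the expression of secretory pathway genes. The 7 Drosophila melanogaster genes described here, of 13946 protein-coding genes on the chromosome arms, were chosen by name: GM130, Grasp65, p115, Golgin84 and Gmap as cis-Golgi members, and Golgin97 and Golgin245 as trans-Golgi members. The placing of a member at the cis or the trans face comes from what is known of it or of its mammalian counterpart, not from these data.

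CrebA binding was mapped by ChIP-seq in embryos at stages 11 to 16, collected for 8 h and aged for 11 h, in 3 immunoprecipitated libraries, each with an input library, so that the series holds 6 samples. In Oregon R, a wild-type strain without a transgene, an antiserum to CrebA precipitated the endogenous protein from whole embryos. In fkh-GAL4::UAS-CrebA-GFP and sage-GAL4::UAS-CrebA-GFP embryos, an antibody to GFP precipitated a CrebA-GFP fusion made only where the driver is active. The drivers also act outside the gland, and the submitters name the salivary gland as the one tissue where both do, so a peak of 1 driver list need not come from the gland. Each group has 1 library, and no value below has a replicate check or a test.

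The authors' peak lists held 14039 peaks for Oregon R, 6464 for fkh-Gal4 and 7916 for sage-Gal4. Each peak carries a fold enrichment, the authors' ratio of signal at the summit to the local background, with medians of 1.88, 1.74 and 1.85 and maxima of 3.98, 3.51 and 3.76 in the same order. Read depth is unknown from peak lists. Folds are used to place a peak within its own list only: a rank of 5% means that 5% of the peaks of that list were as high or higher. A peak was assigned to a gene when it overlapped the gene span extended by 1000 bp on each side, on dm6. The gene table used here gives no strand, so the ends of a gene are called its lower and its upper end by coordinate.

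All 7 genes had a peak in the Oregon R list, where 67.8% of all protein-coding genes did. In the sage-Gal4 list all 7 had one, against 43.3% of all genes, and in the fkh-Gal4 list 6 of 7, against 33.6%. The gene without an fkh-Gal4 peak was Golgin97. The sage-Gal4 count rests partly on weaker peaks. When a minimum of 10 was set on the −log10 q, it was 3 of 7 (14.6% of all genes), and so was the count in all 3 lists (8.26%). At that minimum, 5 of 7 genes had a peak in Oregon R (50.7% of all genes) and 5 of 7 in fkh-Gal4 (11.0%). Peaks in all 3 lists were found at 6 of 7 genes (31.3% of all genes), and at the same 6 the peaks of the 3 lists overlapped one another (29.3% of all genes). Longer genes meet this rule more often. Among protein-coding genes within the members' range of length, 1869 to 24302 bp, the share was 79.8% in Oregon R, 41.8% in fkh-Gal4, 54.0% in sage-Gal4 and 39.5% in all 3 lists. The 7 genes carried 41 peaks over the 3 lists, of which 17 lay at Gmap.

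**Figure D1:**
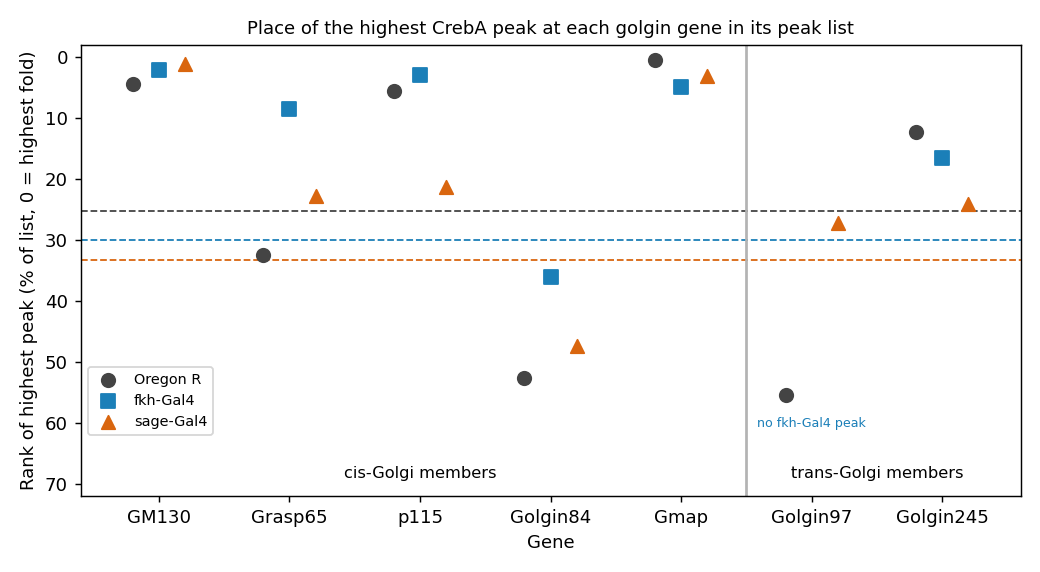
Rank of the highest peak at each gene (vertical axis, percent of the list, with the highest folds at the top) in the Oregon R (circles), fkh-Gal4 (squares) and sage-Gal4 (triangles) lists; dashed lines give the median over all protein-coding genes with a peak in that list. GM130 and Gmap stand in the top 5% of every list, Golgin84 stands below the dashed lines in every list, and Golgin97 has no fkh-Gal4 symbol.

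Among the cis-Golgi members, GM130, the golgin that binds p115 and GRASP-type proteins at the cis face, had 1 peak in each list. Its fold was 2.88 in Oregon R, 2.70 in fkh-Gal4 and 2.96 in sage-Gal4, which placed it at rank 635 (4.52% of the list), 144 (2.23%) and 97 (1.23%). It was high in all 3 lists: 6.12%, 1.70% and 0.982% of all protein-coding genes had a peak placed as high. The summits lay inside the gene, 119, 198 and 170 bp from its upper end (2R, 22124567 to 22127502), and fell within 79 bp of one another. The next gene, NtR, lies 305 bp beyond that end, and the Oregon R peak, from 22126475 to 22128059, reached over its lower end. In every list the summit was nearer to GM130 than to NtR, whose lower end lay 425, 504 and 476 bp away.

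Grasp65 encodes the GRASP-type stacking protein of the fly, which also takes part in unconventional secretion there. A summit lay 141 bp inside its lower end in Oregon R, 143 bp in fkh-Gal4 and 147 bp in sage-Gal4, a spread of 6 bp across the lists. For comparison, the median spread was 214 bp over the 4308 fkh-Gal4 peaks that overlap a peak of both other lists, with quartiles of 86 and 612 bp. The folds at this shared summit were 2.02 (38.8% of the Oregon R list), 2.33 (8.57% of the fkh-Gal4 list) and 2.17 (22.9% of the sage-Gal4 list).

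The peaks over that summit were of unequal width, 3628 bp in Oregon R, 3307 bp in fkh-Gal4 and 719 bp in sage-Gal4, against list medians of 478, 396 and 402 bp. The wider 2 reached across Pfdn6, a prefoldin subunit gene 254 bp below the lower end of Grasp65 (3L, 19924943 to 19927175). They also reached to Su(z)12, a Polycomb group gene. In sage-Gal4, 2 more peaks with folds of 1.56 and 1.46 stood beside the main one, near the foot of that list, at 90.9% and 97.9%. The highest Oregon R peak counted at Grasp65, with a fold of 2.11 (32.5%), lay beyond the gene. Its summit stood 91 bp from the lower end of RhoGDI, 144 bp from the upper end of CG8004 and 1477 bp from that of Grasp65.

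p115 encodes a vesicle tether that binds GM130 and that is known from yeast as Uso1. It had 1 peak in each list, with folds of 2.80 (5.67% of the list) in Oregon R, 2.63 (2.99%) in fkh-Gal4 and 2.20 (21.4%) in sage-Gal4. Its place was high in Oregon R and fkh-Gal4 and more ordinary in sage-Gal4, where 15.1% of all genes had a peak placed as high, compared with 7.78% and 2.27%. All 3 summits lay just outside the lower end of the gene (X, 7894031 to 7896991), by 131, 69 and 32 bp, in the 232 bp gap to CG45089 and ND-MNLL, which share 1 span. ND-MNLL encodes a subunit of respiratory complex I. The Oregon R summit was nearer to that span, at 102 bp, and the driver summits were nearer to p115, so the peak cannot be given to 1 gene of this pair. The Oregon R peak also reached over the upper end of Nek2, 2254 bp from its summit.

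Golgin84, a golgin held in the membrane by a transmembrane segment, had the lowest places among the cis members. A peak over its upper end (3R, 24356070 to 24357938) had folds of 1.85 in Oregon R, 1.73 in fkh-Gal4 and 1.87 in sage-Gal4, at 52.6%, 52.0% and 47.4% of the lists. These places are near the middle of each list, and 56.6% of all genes had an Oregon R peak placed as high. The summits stood at the last base of the gene in Oregon R and 60 and 155 bp inside it with the drivers. A second fkh-Gal4 peak, with a fold of 1.85 (36.1%), had its summit inside the neighbour CG18528, which lies 156 bp beyond the upper end of Golgin84.

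**Figure D2:**
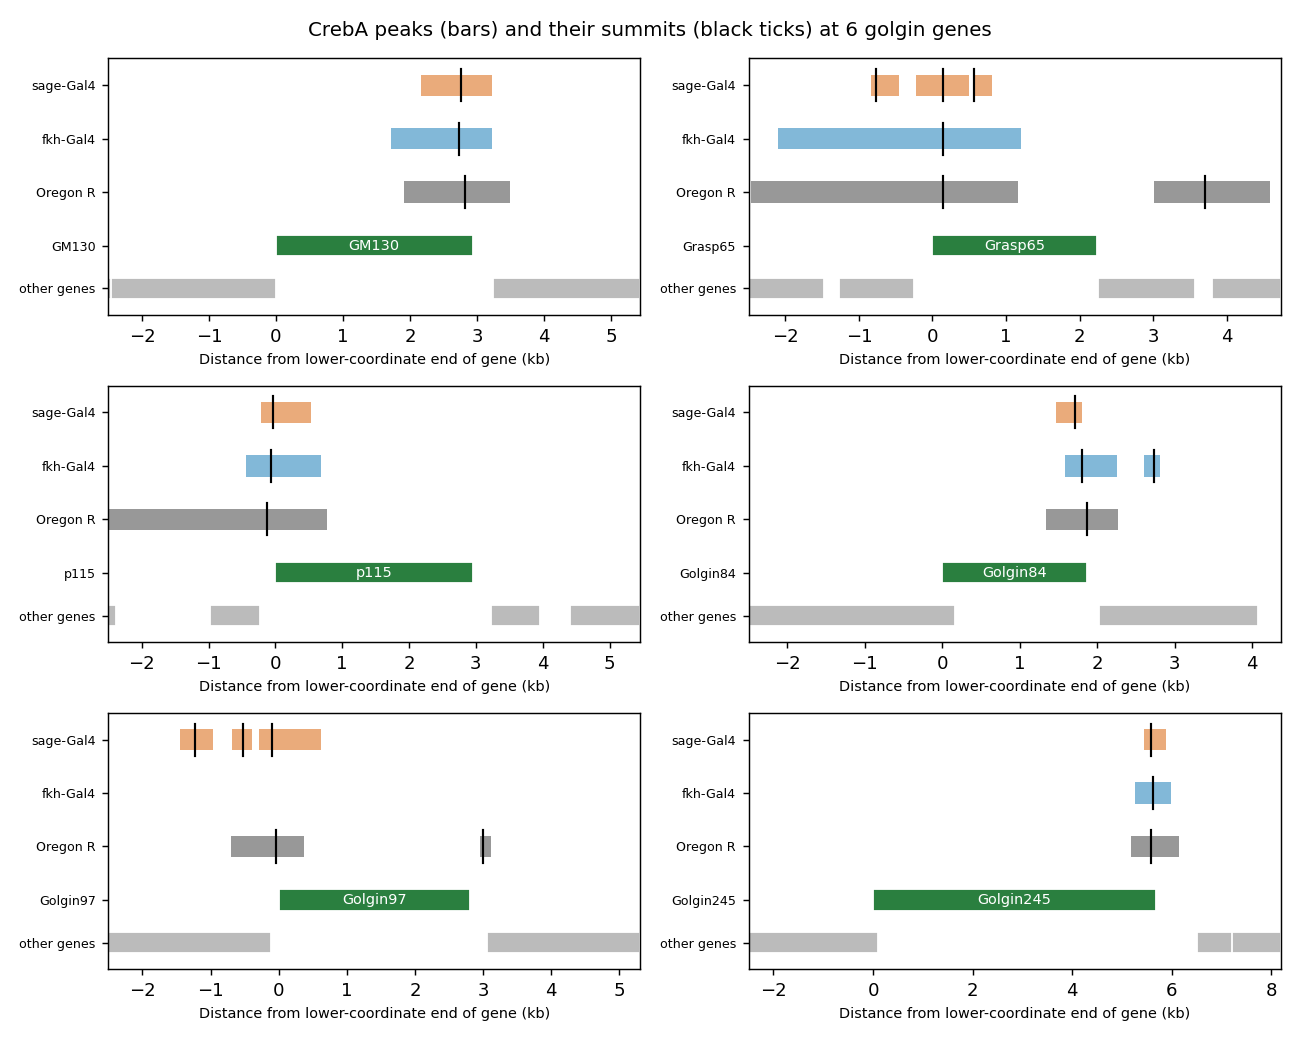
Peaks (coloured bars) and summits (black ticks) of the 3 lists at the 6 genes other than Gmap, by distance in kb from the lower end of each gene (green), with other genes in grey; bars that meet the frame go on beyond it. GM130, p115 and Golgin245 have 1 summit per list, at 1 end of the gene, Oregon R has further summits beyond the upper end of Grasp65 and of Golgin97, and the Golgin97 panel has no fkh-Gal4 bar.

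Gmap encodes the counterpart of mammalian GMAP-210, a cis-Golgi golgin that holds small, highly curved vesicles. At 24302 bp (X, 15486922 to 15511223) it is the longest gene of the 7, and it had 6 peaks in Oregon R, 7 in fkh-Gal4 and 4 in sage-Gal4. Over the 1019 protein-coding genes of at least 20000 bp, the median was 3, 1 and 2 peaks, and 75.8%, 92.8% and 79.5% of them had no more peaks than Gmap. That set has no upper limit of length and Gmap lies near its lower limit, so its genes are not matched to Gmap in length.

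The Oregon R list had its highest Gmap peak at the lower end, with a fold of 3.57 at rank 66 (0.470% of the list), and 0.588% of all genes had an Oregon R peak placed as high. The peak ran from 15484261 to 15487962, and its summit lay 129 bp outside Gmap and 181 bp from the end of CG6340, in the 309 bp gap between those genes. The drivers had a peak there as well, with folds of 2.30 in fkh-Gal4 (9.45%) and 2.34 in sage-Gal4 (14.1%). Their summits stood 81 and 193 bp outside the gene, and the 3 summits fell within 112 bp. CG6340 lay 229 bp from the fkh-Gal4 summit and 117 bp from the sage-Gal4 summit, so the latter was nearer to CG6340 than to Gmap.

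In both driver lists, however, the highest Gmap peak lay inside the gene. It ran from 15496019 to 15499239 in fkh-Gal4, with a fold of 2.48 (4.97% of the list), and from 15496082 to 15499212 in sage-Gal4, with a fold of 2.77 (3.18%). The summits were 10084 and 10124 bp into the gene. Relative to the peak at the lower end, the inside peak was higher by 0.177 in fold in fkh-Gal4 and by 0.431 in sage-Gal4. In Oregon R the end peak exceeded the highest inside peak by 1.13. The order by −log10 q was the same as by fold in each list: 14.0 at the end and 15.6 inside in fkh-Gal4, 9.73 and 15.8 in sage-Gal4, and 39.2 and 14.3 in Oregon R. With 1 library a group, whether any of these differences exceeds the spread between replicates is unknown, in Oregon R as in the driver lists.

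The stretch covered by this wide driver peak held 3 separate Oregon R peaks, with folds of 2.21, 2.44 and 2.32 (26.7%, 15.6% and 21.2% of the list). One of them had its summit 10045 bp into Gmap, within 79 bp of the driver summits. A small noncoding RNA gene, lncRNA:CR44888 (15497523 to 15497862), lay under the driver peaks, while no Oregon R peak overlapped it and the nearest ended or began 139 bp away. Another inside site, with summits 15045, 14960 and 14965 bp into the gene, was in all 3 lists, at folds of 1.56 in Oregon R (83.3%), 2.30 in fkh-Gal4 (9.61%) and 2.11 in sage-Gal4 (26.9%). A site 8868 and 8803 bp into the gene was in the driver lists, with folds of 2.36 and 1.92, and one at 3854 and 3830 bp was in Oregon R and fkh-Gal4, with 1.43 and 1.80. The remaining fkh-Gal4 peaks, 5954 and 14651 bp into the gene, had folds of 1.68 and 1.70.

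The microRNA genes mir-283, mir-304 and mir-12, which lie within the Gmap span toward its upper end, had no overlapping peak in any list. The nearest peak to mir-283 was 5924 bp away in Oregon R, 5576 bp in fkh-Gal4 and 5697 bp in sage-Gal4. At the upper end, Gmap overlaps the adenylyl cyclase gene Ac13E by 347 bp, and none of the 17 Gmap peaks stood there.

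**Figure D3:**
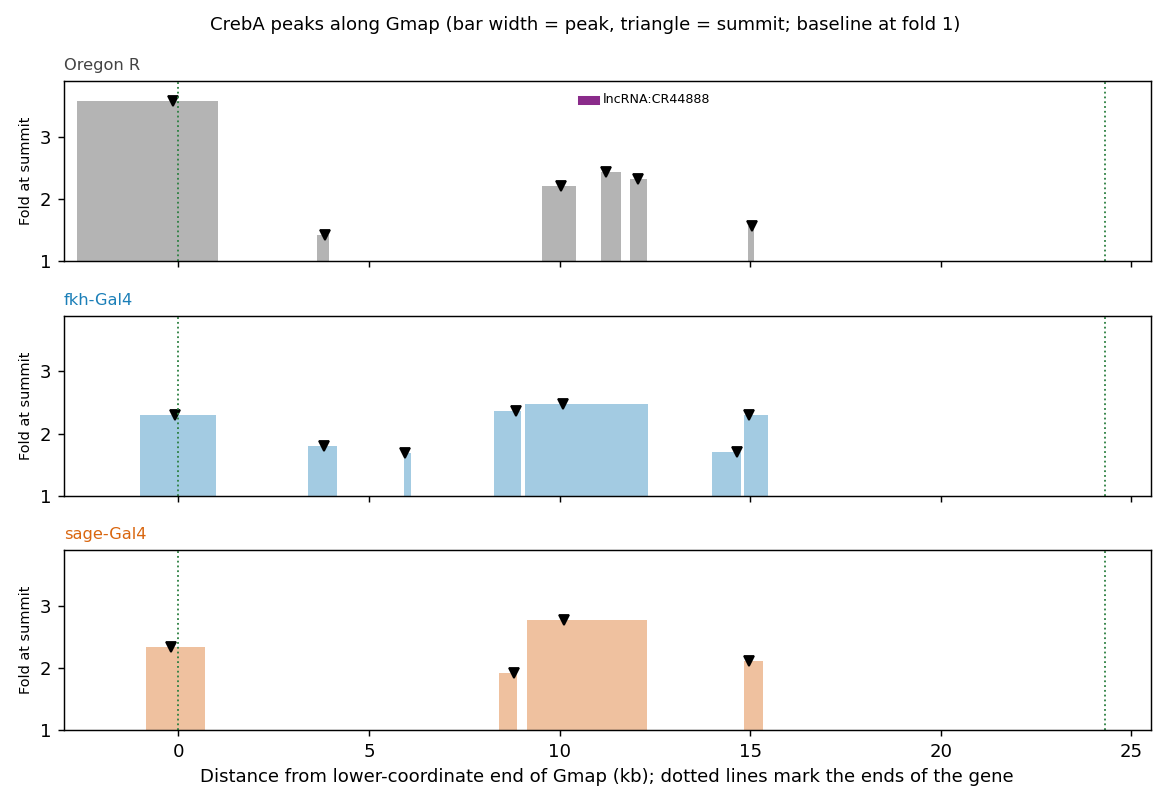
Fold enrichment at the summit (vertical axis, from a baseline of 1) of each peak along Gmap, by distance in kb from its lower end, in the 3 lists; the width of a bar is the width of the peak and a triangle marks its summit. The highest bar is at the lower end in Oregon R and about 10 kb inside the gene in both driver lists.

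Of the trans-Golgi members, Golgin245 is a golgin with a GRIP domain, the segment through which the GTPase Arl1 brings such golgins to the trans face. It had 1 peak in each list, with folds of 2.53 in Oregon R, 2.12 in fkh-Gal4 and 2.15 in sage-Gal4, at 12.3%, 16.6% and 24.1% of the lists. These places were above the median of all genes with a peak, which was 25.3%, 30.0% and 33.3%. The summits stood 110, 68 and 100 bp inside the upper end of the gene (2R, 23371360 to 23377045) and fell within 42 bp. No other gene end was close: CG13551, the nearest, lay 931, 889 and 921 bp from the summits. At every other member the summit nearest a gene end had another gene closer than this.

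Golgin97, the other GRIP domain golgin of the trans face, was the only member without a peak in 1 of the lists. In Oregon R a peak with a fold of 1.81 (55.4% of the list) stood at its lower end (2R, 13450586 to 13453393), and another with 1.55 (85.8%) near its upper end. In sage-Gal4 the peak at the lower end had a fold of 1.62 (84.1%), and higher ones, with 2.11 (27.3%) and 1.74 (64.8%), had their summits inside cnn, which encodes the centrosome protein centrosomin. The closest fkh-Gal4 peak was 11500 bp away. The gap between cnn and Golgin97 is 110 bp. The Oregon R summit in it was 37 bp from Golgin97 and 74 bp from cnn, and the sage-Gal4 summit was 94 and 17 bp from them. The upper Oregon R peak was likewise nearer to another gene, arr, an LRP-type Wnt co-receptor gene, at 54 bp, than to Golgin97, at 193 bp.

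Set side by side, the median place of the highest peak was 5.67% for the 5 cis members and 33.8% for the 2 trans members in Oregon R. In fkh-Gal4 it was 4.97% for the 5 cis members and 16.6% for Golgin245 alone, and in sage-Gal4 21.4% and 25.7%. The sage-Gal4 value of the trans members rests on a Golgin97 peak whose summit lies inside cnn: with no flank, or with the peak nearest a gene end, it was 54.1%. The cis median was 2.99% in fkh-Gal4 without Golgin84 and Gmap, 8.57% there with the peak nearest a gene end, and 13.6% in sage-Gal4 when ranked by −log10 q. The ranges overlapped in Oregon R, 0.470 to 52.6% for cis and 12.3 to 55.4% for trans. They overlapped in sage-Gal4 as well, 1.23 to 47.4% and 24.1 to 27.3%. GM130, p115 and Gmap were the best placed cis members in every list, whereas Golgin84 stood below Golgin245 in every list. Grasp65 stood below Golgin245 in Oregon R and above it in the driver lists. Genes are not replicates of a Golgi face, and no test was made. Over all members with a peak the medians were 12.3% in Oregon R, 6.77% in fkh-Gal4 and 22.9% in sage-Gal4.

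In every list where a member had a peak, a summit lay near an end of the gene. It was not always the summit of the highest peak, as at Gmap in the driver lists. Within 1000 bp of a gene end a summit was found at 7 of 7 in Oregon R (62.4% of all protein-coding genes), 6 of 7 in fkh-Gal4 (28.4%), 7 of 7 in sage-Gal4 (38.9%) and 6 of 7 in all 3 lists (24.9%). These counts equal the counts of genes with a peak and add little to them. At a short gene, a peak that meets the rule mostly has its summit that close to an end. Of the 9453 protein-coding genes with an Oregon R peak, 8698 had such a summit. It was 3963 of 4692 in fkh-Gal4, 5427 of 6040 in sage-Gal4 and 3469 of 4361 in all 3 lists. In Oregon R and in sage-Gal4 all 7 had a summit within 200 bp of a gene end, against 42.3% and 21.8% of all protein-coding genes, and in fkh-Gal4 6 of 7 did, against 14.5%. In all 3 lists at once it was 6 of 7, against 9.28%. These shares include genes without a peak: of the 4361 protein-coding genes with a peak in all 3 lists, 1294 had such a summit in each. The distance of 200 bp was chosen after these values were seen. It just takes in the farthest of the members' nearest summits, at 198 bp, so it was bound to include every member with a peak. It is met by other genes of the pathway too, by 6 of the 9 GTPase genes and 4 of the 8 other coiled-coil and matrix genes listed below in all 3 lists at once. Each gene had its nearest summit at the same end in every list with a peak, the lower end for 4 genes and the upper end for 3. At 4 genes (GM130, Grasp65, Golgin84 and Golgin245) the summit lay inside or at the last base of the span in each list, and at the other 3 (p115, Gmap and Golgin97) it lay outside. Whether these ends are transcription starts cannot be read from a table without strand.

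**Figure D4:**
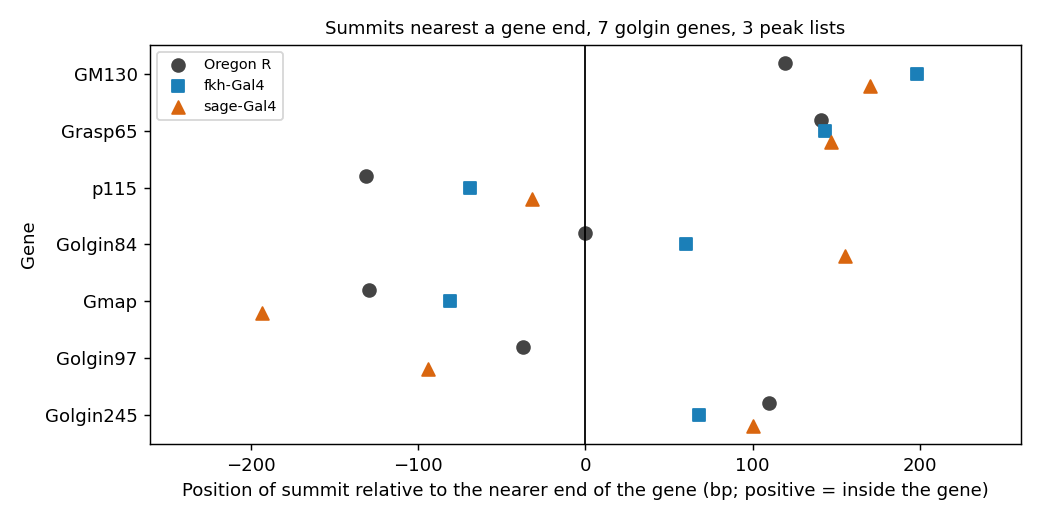
Position in bp of the summit nearest to an end of each gene, with positive values inside the gene, for the 3 lists; 20 summits are drawn because Golgin97 has no fkh-Gal4 peak. All lie between 193 bp outside and 198 bp inside, and the 3 symbols of Grasp65 nearly coincide.

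Neighbours limit how far these peaks can be tied to the golgin genes. The summit of the highest peak was nearer to an end of another gene at Grasp65 and p115 in Oregon R, at Golgin84 and Gmap in fkh-Gal4, and at Gmap and Golgin97 in sage-Gal4; for Gmap the other gene was lncRNA:CR44888 within it. Binding near a gene says nothing of its expression, which was not measured in these libraries.

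Other genes of the pathway were read by the same rule. Of 9 genes for GTPases that recruit golgins or work beside them, 9 had a peak in Oregon R, 7 in fkh-Gal4 and 8 in sage-Gal4, and 7 had one in all 3 lists, beside the 67.8%, 33.6%, 43.3% and 31.3% of all protein-coding genes given above. Ordered by the worst place of a gene over the 3 lists, the best placed were Arl1, which recruits GRIP domain golgins, at 11.0% of the Oregon R, 0.464% of the fkh-Gal4 and 3.17% of the sage-Gal4 list (folds 2.57, 3.11 and 2.77), Arf1, the GTPase of the COPI coat (12.4%, 3.36% and 9.75%), and Arfrp1, which acts upstream of Arl1 in other species (9.23%, 13.3% and 3.84%). The 2 genes without an fkh-Gal4 peak were dnd, which the table gives for the symbol Arl3, and Rab39. Whether dnd belongs among these GTPases is uncertain, since in yeast the name Arl3 stands for the counterpart of Arfrp1. Without dnd, 8 of 8 had a peak in Oregon R, 7 in fkh-Gal4 and 8 in sage-Gal4. The medians over genes with a peak were 18.8%, 13.3% and 9.47%.

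Of 8 genes for other coiled-coil or matrix proteins of the Golgi, 8 had a peak in Oregon R, 8 in fkh-Gal4 and 7 in sage-Gal4, with 7 in all 3 lists, beside the same shares of all genes (67.8%, 33.6%, 43.3% and 31.3%). The gene lva, which encodes the Golgi-associated protein Lava lamp, was placed above every one of the 7 golgin genes in both driver lists, at 0.387% and 0.745%, and at 0.883% in Oregon R, with folds of 3.39 in Oregon R, 3.14 in fkh-Gal4 and 3.06 in sage-Gal4. CG9356, listed under the synonym Golgin-45, stood at 6.47%, 9.25% and 10.5%. The place of sau, the GOLPH3 gene, was higher than that in Oregon R and fkh-Gal4, at 6.21% and 4.83%, and lower in sage-Gal4, at 28.4%. The group was uneven, with medians of 12.4%, 37.5% and 32.6%, and the gene without a sage-Gal4 peak was GCC88.

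**Figure D5:**
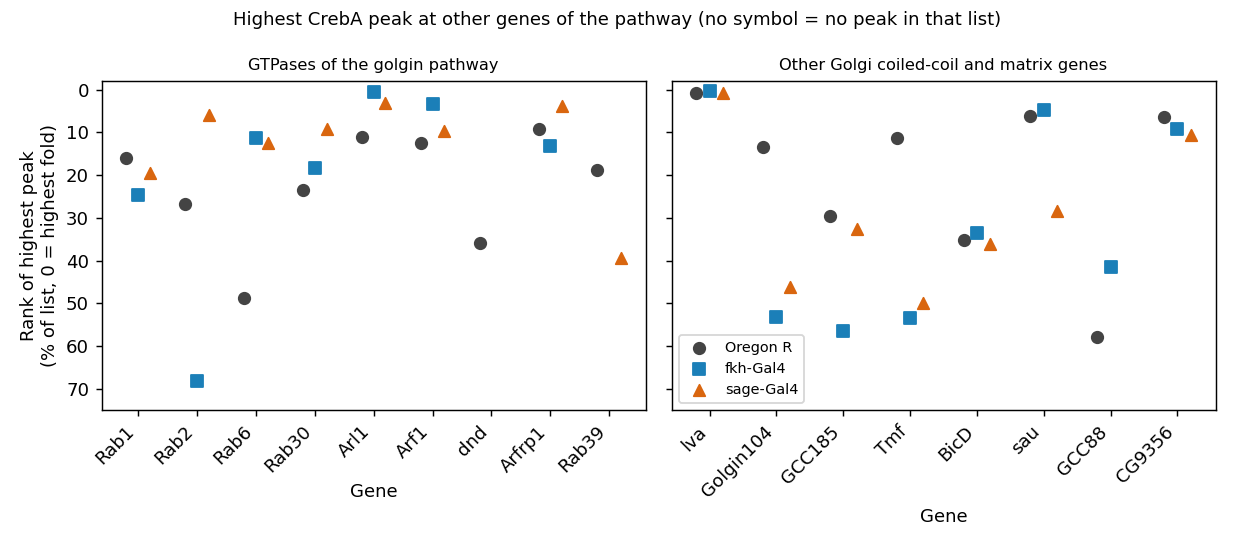
Rank of the highest peak (percent of the list, highest folds at the top) at 9 GTPase genes and 8 other Golgi coiled-coil and matrix genes in the Oregon R (circles), fkh-Gal4 (squares) and sage-Gal4 (triangles) lists. In the fkh-Gal4 list lva and Arl1 stand highest, in Oregon R and sage-Gal4 lva does, and dnd, Rab39 and GCC88 lack a symbol in at least 1 list.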

How the data were processed

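The submitters' processing notes name BWA, MACS2 (2.1.0.20140616) and the build dm6; command lines and the use of the inputs are not stated there. Per the labels' protocols, chromatin came from 2 collections fixed in 1.8% formaldehyde, and pooling is not stated. The deposited narrowPeak lists give, per peak, a whole-number score and a −log10 p of the p-value, neither used here. They also give the authors' fold enrichment, a ratio used for ranks, and −log10 q, whose lowest values of 1.31, 1.30 and 1.31 (Oregon R, fkh-Gal4, sage-Gal4) are close to a q-value of 0.05.

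Gene spans were those of RefSeq on the release 6 assembly, the one behind dm6, without strand or exons. No genome sequence was used, so no motif was searched. Overlap meant at least 1 bp, and tied folds took the best rank. Of 18 symbols in the pathway lists 17 were matched; cbs, also a synonym of Golgin97, was left out. The members and lists were chosen with earlier results of these data known. Named genes were all members, genes sharing a member's highest peak, up to 3 best placed genes of each pathway list and, after their values were seen, other neighbours and pathway genes lacking a peak; the genes most like the best placed member are not reported here. The code was tested on simulated peaks. Python 3.11.15, numpy 2.4.6, pandas 2.3.3 and matplotlib 3.10.9 were used.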

Additional observations from a re-analysis of the deposited data

How the results depend on the processing

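With no flank, a flank of 500 or 2000 bp, the summit in place of the peak, or the summit within 1000 bp of a gene end, the counts of genes with a peak were the same as reported: 7 of 7 in Oregon R, 6 in fkh-Gal4, 7 in sage-Gal4 and 6 in all 3 lists. The share of all protein-coding genes moved with these settings. It was 58.6 to 72.5% in Oregon R, 24.7 to 38.5% in fkh-Gal4, 31.9 to 48.8% in sage-Gal4 and 22.2 to 36.1% in all 3 lists. With peaks of a −log10 q of at least 10, the count was 3 in sage-Gal4 (14.6% of all genes) and 3 in all 3 lists (8.26%), namely GM130, Grasp65 and Gmap. In Oregon R it was 5 (50.7%) and in fkh-Gal4 5 (11.0%). With the 1000 peaks of highest fold, the count was 3 in Oregon R (9.95%) and 4 in fkh-Gal4 (10.1%). It was 2 in sage-Gal4 (9.23%) and 2 in all 3 lists (2.16%), namely GM130 and Gmap. Both settings use fewer peaks. The cis median was 2.99% in fkh-Gal4 without Golgin84 and Gmap, 13.6% in sage-Gal4 when peaks were ranked by −log10 q (the cause was not tested), and 8.57% in fkh-Gal4 with the peak nearest a gene end. The trans median in sage-Gal4 was 54.1% with no flank and 54.1% with the peak nearest a gene end, which leave out the peaks inside cnn. These no-flank and nearest-peak medians were chosen after seeing the data. Of 100 places of single genes recomputed, 10 moved by over 1.5 times, among them Golgin97 in sage-Gal4, at 84.1% with no flank, and Gmap at 9.45% and 14.1% in the driver lists when the peak nearest a gene end was taken. In each list and setting where both were computed, the cis median stayed at a higher place than the trans median. This is no check of a difference between the faces. The trans side was 2 genes, and Golgin245 alone in fkh-Gal4, and several settings returned the same values. The order of single genes did not always hold. In sage-Gal4 Golgin97 stood above Golgin84 as reported (27.3% and 47.4%) and below it at 84.1%. That place and the trans median of 54.1% were below the reported median of all genes with a peak, 33.3%, whereas the reported values were above it. The comparison of Gmap peaks by −log10 q was chosen after seeing the data. No paired analysis was possible because each group has 1 library and no test was made. Unknown read depth limits every absence of a peak, such as that of Golgin97 in fkh-Gal4: it means no peak past the authors' threshold.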
